A study of Mus musculus with 6 samples.

Results

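Globin transcripts and 3 other genes of red blood cells were followed in whole mouse ovaries. The genes were chosen by symbol: the alpha globins Hba-a1 and Hba-a2, the beta globins Hbb-bs and Hbb-bt, and Alas2, Slc4a1 and Bpgm. Of these 7 genes, 6 were among the 16454 in the table, and Hba-a2 was not measured. The ovaries came from mice of the outbred CD1 stock at postnatal day 21, in generation 3 of lineages founded by dosed dams. In the DEHP lineage (3 ovaries) the plasticizer di(2-ethylhexyl) phthalate (DEHP) was given to the generation 0 dams at 20 µg/kg/day, and in the control lineage (3 ovaries) they were given the vehicle, a corn oil stripped of tocopherol. The generation 3 mice were not themselves dosed, and the comparison asks whether their ovarian transcripts differed by lineage. Each ovary was sequenced alone, and the labels do not tie ovaries to litters or to founders, so p-values measure only the spread between these ovaries.

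Haemoglobin, the oxygen carrier of red blood cells, is built of alpha and beta globin chains that each hold a haem group. Red cell precursors make it in the bone marrow and, in mice, also in the spleen. The mature mouse red cell has no nucleus, while the reticulocyte, its immediate precursor, enters the blood with globin messenger RNA still present. The ovary has a dense blood supply and is not known as a site of red cell formation. In a whole organ, fewer cells of a type and less RNA per cell cannot be told apart.

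The globin genes come in near-identical copies, so the letters in which the copies differ are shown first. Over the 429 bases of coding sequence in the GENCODE transcripts (GRCm38.p6), Hba-a1 and Hba-a2 differed at 1 position, C381T, counted from 1 at the A of the start codon (Hba-a1 base first). Over 444 bases, Hbb-bs and Hbb-bt differed at 1 position, C417T (Hbb-bs base first). Neither difference changes the encoded protein. The 60 bases of sense strand around each difference are given, with the differing base in capitals.
Hba-a1: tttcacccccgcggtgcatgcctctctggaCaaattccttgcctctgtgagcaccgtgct
Hba-a2: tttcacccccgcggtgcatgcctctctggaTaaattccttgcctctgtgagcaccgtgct
Hbb-bs: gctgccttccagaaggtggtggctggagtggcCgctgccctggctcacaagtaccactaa
Hbb-bt: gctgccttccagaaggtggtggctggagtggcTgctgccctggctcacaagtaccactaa
Reads had 101 cycles. Of the 101-base windows of Hba-a1 transcripts, 56.26% also occurred in Hba-a2, and 53.92% of those of Hbb-bs occurred in Hbb-bt. A read from such a window does not tell the copies apart, and the sources used here do not say how reads that fit several genes were counted. The separate levels of the globin copies are therefore uncertain. Alas2, Slc4a1 and Bpgm shared 0% of their windows with other genes.

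The 200 bases before the RefSeq start of transcription (GRCm38.p6) are shown for the members whose levels are described together below, each on its gene's own strand. For Slc4a1 the reference used held no such window, so none is shown. Capitals mark 4 motifs on either strand: GATA (the letters GATA, with A or T before them and A or G after them), the CACCC box, the CCAAT box and the TATAA box, so that a motif on the other strand reads as its reverse complement. GATA and CACCC motifs are the letters read by the red cell factors GATA1 and KLF1, and the CCAAT box and TATAA box are general promoter elements.
Hba-a1 (chr11:32283472-32283671, plus strand): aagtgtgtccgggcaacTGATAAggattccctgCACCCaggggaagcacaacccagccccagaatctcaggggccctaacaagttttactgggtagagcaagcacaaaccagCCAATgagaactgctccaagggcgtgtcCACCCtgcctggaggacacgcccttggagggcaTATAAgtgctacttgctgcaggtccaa
Hbb-bs (chr7:103827929-103828128, minus strand): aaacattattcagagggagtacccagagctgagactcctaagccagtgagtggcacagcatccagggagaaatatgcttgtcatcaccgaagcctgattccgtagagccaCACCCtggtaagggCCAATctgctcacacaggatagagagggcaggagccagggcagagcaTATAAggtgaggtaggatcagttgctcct
Hbb-bt (chr7:103813924-103814123, minus strand): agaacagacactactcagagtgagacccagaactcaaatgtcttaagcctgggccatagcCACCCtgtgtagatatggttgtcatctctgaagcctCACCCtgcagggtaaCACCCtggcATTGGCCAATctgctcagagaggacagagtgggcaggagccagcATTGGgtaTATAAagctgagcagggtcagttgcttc
Alas2 (chrX:150547217-150547416, plus strand): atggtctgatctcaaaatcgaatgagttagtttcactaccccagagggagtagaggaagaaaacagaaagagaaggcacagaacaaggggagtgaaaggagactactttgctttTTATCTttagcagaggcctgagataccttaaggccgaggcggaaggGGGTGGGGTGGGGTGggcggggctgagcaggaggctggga
The CACCC box, the CCAAT box and the TATAA box all occurred before Hba-a1, Hbb-bs and Hbb-bt, and a GATA motif before Hba-a1 and Alas2. The CACCC box also occurred before Alas2, on the other strand. The window of Bpgm (chr6:34476156-34476355) held CCAAT at 2 places and none of the other motifs. Among 32851 promoter windows of the same length, 21.4% held a GATA motif, 45.52% a CACCC box, 29.35% a CCAAT box and 18.55% a TATAA box. A match describes the letters only and is no evidence of binding. Unlike their coding sequences, the windows of Hbb-bs and Hbb-bt had no shared run longer than 14 bases, while those of Hba-a1 and Hba-a2 shared a run of 197.

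The values were log2 CPM (read counts relative to library size) per ovary, from which the authors had removed a surrogate variable, an estimated nuisance direction across samples. The summed CPM was 979868 to 1026740 per ovary, and the sequencing depth is unknown. After that removal the column of DEHP replicate 3 was an exact weighted sum of the other 5 columns, to within 8.42e-09 on the log2 scale, with weights of 0.80 and 0.20 on DEHP replicates 1 and 2 and of 0.25, -0.11 and -0.14 on control replicates 1, 2 and 3. A high value in DEHP replicates 1 and 3 is thus not separate evidence from 2 ovaries, and every SD of the DEHP lineage carries this link. The weights also place DEHP replicate 3 between DEHP replicates 1 and 2, nearer to 1, unless the control ovaries differ enough to shift it. A shared order of the DEHP-lineage ovaries therefore says mainly which of DEHP replicates 1 and 2 was higher. The test for each gene was limma's moderated test with 3 residual degrees of freedom and Benjamini-Hochberg adjustment over all 16454 genes. All 12 listed oocyte, 10 granulosa and 8 theca or interstitial markers were measured.

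Hba-a1 (Entrez 15122, chromosome 11, 32283672 to 32284486), the measured alpha globin gene, was at 23.0, 29.0 and 53.0 CPM in control replicates 1, 2 and 3 and at 157, 48.8 and 108 CPM in DEHP replicates 1, 2 and 3. DEHP replicates 1 and 3 lay above every control ovary, but DEHP replicate 2 lay below control replicate 3, so the groups overlapped. The means were 35.0 ± 15.8 CPM in the control lineage and 104 ± 54.0 CPM in the DEHP lineage (SD, n = 3 each). The log2 difference, DEHP minus control, was 1.51 (SE 0.457, 95% interval 0.44 to 2.58), a 2.86-fold ratio of geometric means. The unadjusted p was 0.0121 by limma and the adjusted p was 0.491, so the difference was not called.

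Hbb-bs (Entrez 100503605, chromosome 7, 103826523 to 103827928), an adult beta globin gene, was at 31.8, 32.6 and 54.5 CPM in the control ovaries and at 86.8, 51.4 and 72.3 CPM in the DEHP-lineage ovaries. The order was that of Hba-a1: DEHP replicates 1 and 3 were highest, and DEHP replicate 2 lay below control replicate 3. The means were 39.7 ± 12.9 and 70.2 ± 17.8 CPM (SD, n = 3 each), with a log2 difference of 0.84 (SE 0.258, interval 0.23 to 1.44), or 1.79-fold. By limma the unadjusted p was 0.0135 and the adjusted p 0.491.

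Hbb-bt (Entrez 101488143, chromosome 7, 103812524 to 103813923), the neighbouring beta globin gene, was the lowest of the measured adult globins in each of the 6 ovaries. It was at 4.22, 6.25 and 9.64 CPM in the control lineage and 11.8, 7.08 and 9.08 CPM in the DEHP lineage, where only replicate 1 lay above every control. The log2 difference of 0.52 had an interval of -0.25 to 1.30 (unadjusted p 0.155, adjusted p 0.688 by limma). It was 0.23 without control replicate 1, 0.34 without DEHP replicate 1 and 0.83 without control replicate 3 (unadjusted p 0.0196, adjusted p 0.602). The ratio of Hbb-bs to Hbb-bt was 7.54, 5.22 and 5.66 in the control ovaries and 7.37, 7.26 and 7.97 in the DEHP-lineage ovaries, and the groups overlapped.

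**Figure D1:**
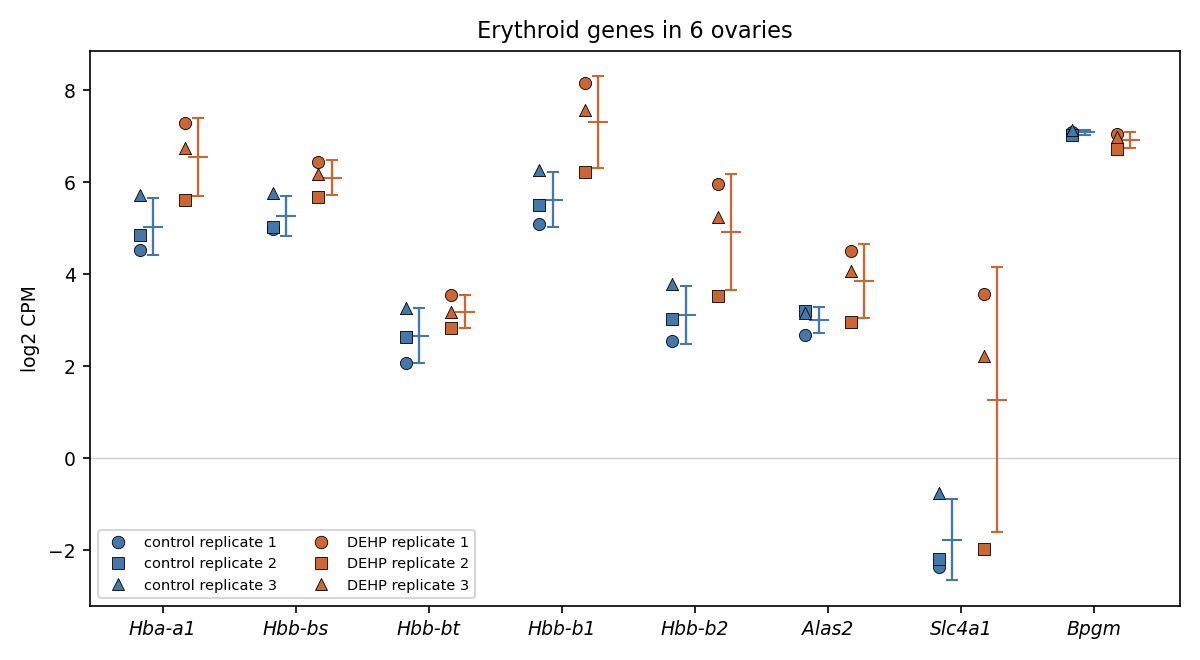
Level of each measured gene in each ovary, as log2 CPM with the surrogate variable removed by the authors (points, one per ovary; colours, control and DEHP lineage). For Hba-a1, Hbb-bs, Hbb-bt, Alas2 and Slc4a1 the highest point is DEHP replicate 1, while DEHP replicate 2 lies among the controls; Bpgm is flat by comparison.

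Hbb-b1 and Hbb-b2, the major and minor adult beta chains of the other common arrangement of the mouse beta globin locus, were also in the table. Mouse strains carry either Hbb-bs with Hbb-bt or Hbb-b1 with Hbb-b2, an outbred stock can hold both arrangements, and the labels give no globin genotype. Hbb-b1 was at 34.4, 45.3 and 77.1 CPM in the control ovaries and 287, 74.4 and 190 CPM in the DEHP-lineage ovaries, with a log2 difference of 1.69 (interval 0.52 to 2.86, unadjusted p 0.0109, adjusted p 0.480 by limma). Hbb-b2 was at 5.81, 8.10 and 13.8 CPM and at 62.8, 11.5 and 38.1 CPM, with a log2 difference of 1.80 (interval 0.37 to 3.23, unadjusted p 0.0204, adjusted p 0.494). Both genes repeated the order of ovaries seen in Hba-a1, with a wider gap between DEHP replicates 1 and 2 than in Hbb-bs.

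The ratios between the 2 beta globin arrangements are given with a limit: how many windows Hbb-b1 and Hbb-b2 share with Hbb-bs and Hbb-bt was not measured, so reads may have been divided between these copies in a way that is not known. The ratio of Hbb-b1 to Hbb-bs was 1.08, 1.39 and 1.41 in the control ovaries and 3.30, 1.45 and 2.62 in the DEHP-lineage ovaries. That of Hbb-b2 to Hbb-bt was 1.38, 1.30 and 1.44, against 5.33, 1.62 and 4.20. DEHP replicates 1 and 3 stood apart in both ratios, and DEHP replicate 2 lay next to the controls. Hbb-b1 and Hbb-b2 together made 52.7%, 57.9% and 58.6% of the CPM of the 4 beta globins in the control ovaries and 78.0%, 59.5% and 73.7% in the DEHP-lineage ovaries. The ratio of Hba-a1 to Hbb-b1 stayed between 0.546 and 0.687 in all 6 ovaries, while that of Hba-a1 to Hbb-bs ran from 0.723 to 1.81. Whether the ovaries came from mice of different globin genotypes was not tested.

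**Figure D2:**
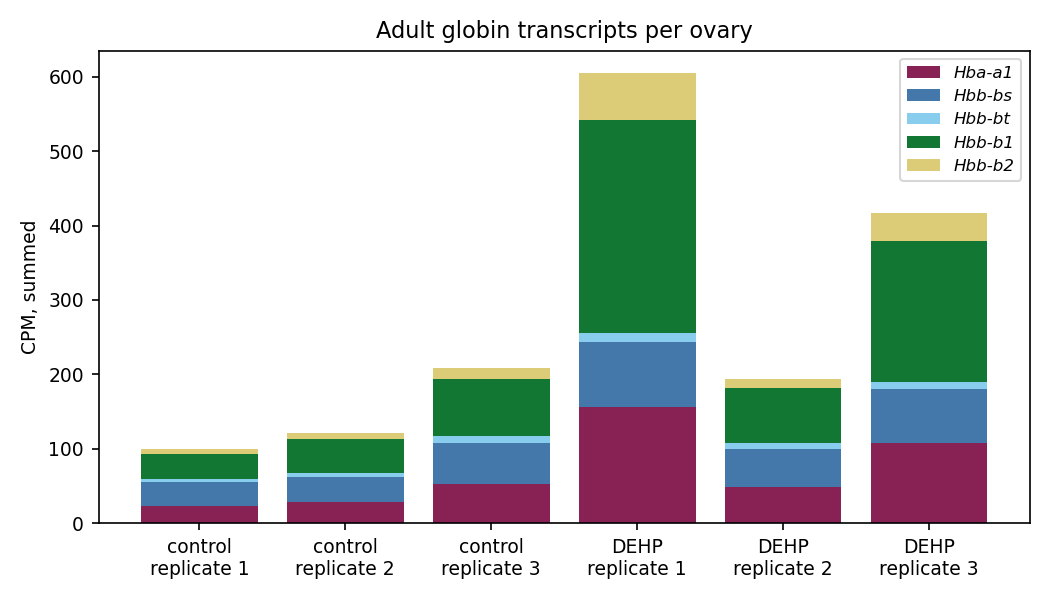
Summed CPM of the 5 adult globin genes measured, stacked by gene, in each ovary (linear axis from 0). The sums of DEHP replicates 1 and 3 were 605 and 417 CPM, that of DEHP replicate 2 was 193, and the controls had 99.3 to 208. Hbb-b1 is the widest band in every ovary of both lineages.

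Summed over Hba-a1 and the 4 beta globins, the level was 99.3, 121 and 208 CPM in the control ovaries and 605, 193 and 417 CPM in the DEHP-lineage ovaries. That was 143 ± 57.5 and 405 ± 206 CPM (SD, n = 3 each), a log2 difference of 1.43 or 2.69-fold, given with no test. In every ovary these globins made only 0.0101% to 0.0607% of the summed CPM. The sum of Hbb-bs and Hbb-bt alone differed by 0.79 on the log2 scale, and that of all 4 beta globins by 1.40, so the size of the beta globin difference depended on which copies were counted. Within the control lineage the 5-gene sum of replicate 3 exceeded that of replicate 1 by a margin of 208 against 99.3 CPM.

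Alas2 (Entrez 11656, chromosome X, 150547417 to 150570622) encodes the erythroid form of aminolevulinate synthase, which catalyses the first step of haem synthesis. It was at 6.38, 9.14 and 8.90 CPM in the control ovaries and at 22.9, 7.76 and 16.9 CPM in the DEHP-lineage ovaries. DEHP replicate 2 lay below control replicates 2 and 3, and the other two DEHP-lineage ovaries lay above every control. The means were 8.14 ± 1.53 and 15.8 ± 7.61 CPM (SD, n = 3 each), and the log2 difference was 0.84 (SE 0.385, interval -0.06 to 1.75, unadjusted p 0.0629, adjusted p 0.580 by limma). It was 0.51 without DEHP replicate 1 and 1.29 without DEHP replicate 2. Apex2, a DNA repair gene that overlaps Alas2 on the opposite strand and was looked up for that reason, was at 16.6, 16.3 and 17.8 CPM and at 15.7, 17.3 and 15.9 CPM, a log2 difference of -0.05 (p 0.652 by limma). It did not share the high values of DEHP replicates 1 and 3. The sources used here do not say whether the counting used strand.

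Slc4a1 (Entrez 20533, chromosome 11, 102348820 to 102365281) encodes band 3, the chloride and bicarbonate exchanger that anchors the red cell membrane to its skeleton. It was at 0.192, 0.219 and 0.589 CPM in the control ovaries and at 11.9, 0.256 and 4.64 CPM in the DEHP-lineage ovaries. DEHP replicate 2 lay within the control range, so the difference rested on replicates 1 and 3. Its means were 0.333 ± 0.222 and 5.61 ± 5.89 CPM (SD, n = 3 each). The log2 difference of 3.05 had an interval of -0.04 to 6.15 (SE 1.32, unadjusted p 0.0525, adjusted p 0.570 by limma). By size it was number 10 of all 16454 log2 differences counted from the highest. With 1 CPM added to every value it was 1.77. Without DEHP replicate 1 it was 1.90, and without DEHP replicate 2 it was 4.67 and was called (adjusted p 0.0246 by limma).

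Slc4a1 also varied most within the DEHP lineage among the measured members, with an SD of 2.89 on the log2 scale against 0.88 in the control lineage. DEHP replicate 1 exceeded DEHP replicate 2 by 5.54 on that scale, number 8 of all genes by this gap, and 41 genes had a gap of at least 3. For Hba-a1 the same gap was 1.68 and for Alas2 1.56. The ratio of Slc4a1 to Hba-a1 was 0.00836, 0.00754 and 0.0111 in the control ovaries and 0.0760, 0.00524 and 0.0431 in the DEHP-lineage ovaries. Slc4a1 was thus higher relative to Hba-a1 in DEHP replicates 1 and 3 than in any other ovary. The ratio of Alas2 to Hba-a1 did not set DEHP replicates 1 and 3 apart, at 0.277, 0.315 and 0.168 against 0.146, 0.159 and 0.157. It was lower in every DEHP-lineage ovary than in any control ovary.

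Bpgm (Entrez 12183, chromosome 6, 34476356 to 34505136) encodes bisphosphoglycerate mutase, which makes the metabolite that lowers the oxygen affinity of haemoglobin. It was at 136, 130 and 141 CPM in the control ovaries and at 133, 106 and 127 CPM in the DEHP-lineage ovaries. DEHP replicate 2 was the lowest, and DEHP replicate 1 lay within the control range. The means were 136 ± 5.18 and 122 ± 14.3 CPM (SD, n = 3 each), with a log2 difference of -0.16 (interval -0.40 to 0.07, unadjusted p 0.145, adjusted p 0.680 by limma). It was -0.06 without DEHP replicate 2 and -0.23 without DEHP replicate 1 (p 0.496 and 0.0539). Bpgm was the only measured member with a lower mean in the DEHP lineage, and it did not follow the order of ovaries of the globins.

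**Figure D3:**
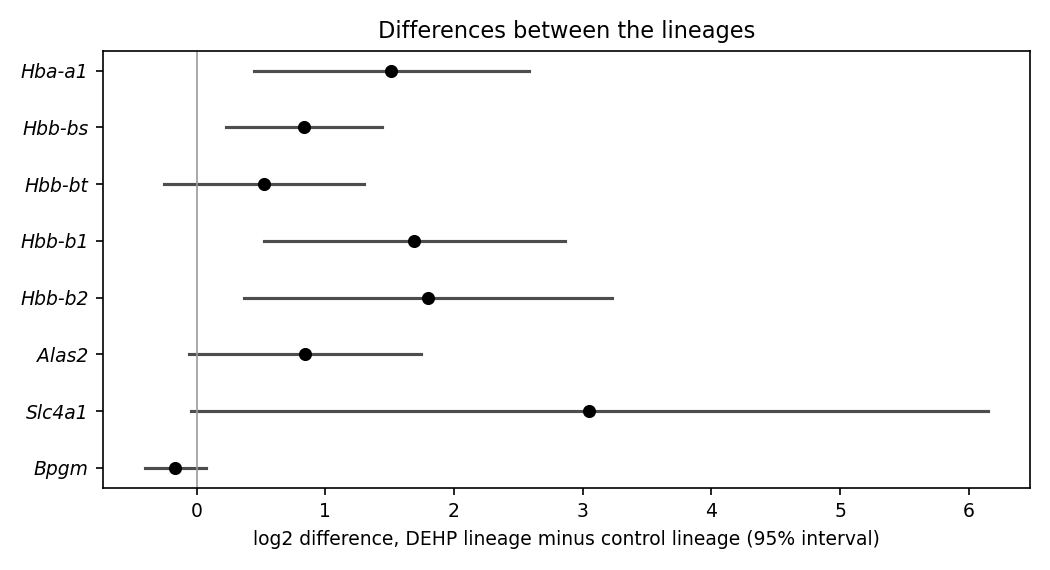
Log2 difference, DEHP lineage minus control lineage (points), with 95% intervals from limma (lines), for the 6 measured genes and for Hbb-b1 and Hbb-b2. The intervals of Hba-a1, Hbb-bs, Hbb-b1 and Hbb-b2 lie above 0; those of Hbb-bt, Alas2, Slc4a1 and Bpgm include it, and that of Slc4a1 is the widest.

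Levels were also divided by exon length to set the genes side by side; for the globins this does not remove the uncertainty from shared windows. In the control lineage Hbb-bs stood at 51.6 ± 16.8 CPM per kilobase, Hba-a1 at 43.1 ± 19.5 and Bpgm at 37.9 ± 1.44 (SD, n = 3), and these 3 genes did not differ beyond their spread. Hbb-bt followed at 9.53 ± 3.89, Alas2 at 3.39 ± 0.637 and Slc4a1 at 0.0682 ± 0.0453 CPM per kilobase. In the DEHP lineage the order was Hba-a1 at 129 ± 66.5, Hbb-bs at 91.3 ± 23.2, Bpgm at 33.9 ± 3.98, Hbb-bt at 13.2 ± 3.35, Alas2 at 6.59 ± 3.17 and Slc4a1 at 1.15 ± 1.20. Hba-a1 and Hbb-bs overlapped there within their spread. Bpgm thus stood near Hba-a1 and Hbb-bs, and above Hbb-bt, in the control lineage.

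Counted over the 6 measured genes, 5 had a higher mean in the DEHP lineage, and the median log2 difference was 0.84, beside -0.01 over all genes. An unadjusted p under 0.05 by limma was reached by 2 of the 6, Hba-a1 and Hbb-bs, both higher, and by 0 in the lower direction. Over all genes these shares were 4.76% higher, 4.02% lower and 8.78% in either direction. None of the 6 passed the adjusted threshold (0 of 6), which 0.0425% of all genes passed. In 0 of the 6 were the groups without overlap, against 10.8% of all genes with the DEHP lineage higher and 12.2% with it lower. DEHP replicate 1 lay above every control ovary in 5 of the 6 genes (22.2% of all genes), and DEHP replicate 2 in 0 of the 6 (26.1%).

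The authors' deposited table gave log2 fold changes in the same directions, with adjusted p-values above 0.05. In that table they were 1.62 for Hba-a1 (adjusted p 0.836), 0.83 for Hbb-bs (0.817), 0.49 for Hbb-bt (0.898), 1.00 for Alas2 (0.823), 4.10 for Slc4a1 (0.848) and -0.16 for Bpgm (0.889). The unadjusted p-values of the authors' deposited table were above 0.05 for all 6 as well, among them 0.0889 for Hba-a1 and 0.0653 for Hbb-bs, and also for Hbb-b1 (0.0772) and Hbb-b2 (0.0868).

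Other genes of the red cell programme were taken from lists of symbols. Of the genes for the membrane skeleton, which gives the red cell its shape, 13 of 16 were measured and 11 had a higher mean in the DEHP lineage, with a median log2 difference of 0.41. By limma, 2 had an unadjusted p under 0.05, both higher, and 0 of the 13 were called, beside 4.76% of all genes higher by p and 0.0425% called. Dmtn, which bundles actin in the skeleton, was at 2.66, 2.75 and 2.71 CPM in the control ovaries and 7.76, 3.72 and 6.65 CPM in the DEHP-lineage ovaries (1.09 on the log2 scale, p 0.00767). Rhd, a protein of the Rh complex, was at 2.40, 2.38 and 2.83 against 5.35, 3.12 and 4.70 CPM (0.76, p 0.0240). In these genes all 3 DEHP-lineage ovaries lay above every control, replicate 2 by the least. DEHP replicate 1 lay above every control in 9 of the 13 genes (22.2% of all genes) and DEHP replicate 2 in 3 of them (26.1%). Epb42, a partner of band 3, was picked after its values were seen. It was at 0.421, 0.571 and 0.591 against 4.01, 0.322 and 2.22 CPM, with DEHP replicate 2 below the controls. Ank1 (-0.38, p 0.107) and Epb41 (0.08, p 0.419), which other cells also express, had the highest mean CPM of the remaining members.

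Among regulators of red cell formation, 7 of 9 were measured and 6 had a higher mean in the DEHP lineage (median log2 difference 0.41). In 4 of them the unadjusted p was under 0.05 by limma and the groups did not overlap, all higher, and 0 were called (over all genes 4.76% were higher by p, 10.8% higher without overlap and 0.0425% called). These were Epor, the erythropoietin receptor (0.98, p 0.0145), and the transcription factors and cofactors Tal1 (0.77, p 0.0297), Zfpm1 (0.60, p 0.0134) and Lmo2 (0.41, p 0.0414). Tal1 was at 2.82, 3.27 and 3.23 CPM in the control ovaries and 7.04, 3.57 and 5.92 CPM in the DEHP-lineage ovaries, with replicate 2 just above the controls. Tal1 and Lmo2 are also made by endothelial cells. Gata1, the central red cell factor, had a log2 difference of 0.12 (p 0.705) and Ldb1, its cofactor, of 0.15 (p 0.152). Gata1 was at 2.18, 2.28 and 2.47 CPM in the control ovaries and 3.24, 1.73 and 2.79 CPM in the DEHP-lineage ovaries. Its DEHP replicates 1 and 3 lay above every control and replicate 2 below every control. Klf1, the red cell factor named above for CACCC, was picked after its values were seen and did not follow the globins: it was at 0.518, 3.12 and 4.27 CPM in the control ovaries and 3.41, 0.457 and 1.39 CPM in the DEHP-lineage ovaries (p 0.581 by limma).

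In the haem synthesis pathway, all 10 listed genes besides Alas2 were measured, 8 with a higher mean in the DEHP lineage and a median log2 difference of 0.10. By limma 2 had an unadjusted p under 0.05, both higher, and 0 were called (over all genes 4.76% were higher by p and 0.0425% called). They were Ppox, protoporphyrinogen oxidase (0.38, p 0.00403), and Alad, aminolevulinate dehydratase (0.76, p 0.0466). Alas1, the form of the first enzyme used by most tissues, differed by 0.13 (p 0.115) and Fech, which inserts iron, by 0.01 (p 0.873). Alad was at 35.2, 44.4 and 90.8 CPM against 91.1, 95.8 and 78.8 CPM, an order of ovaries unlike that of Alas2. Of 8 iron uptake genes, 1 had an unadjusted p under 0.05 (8.78% of all genes). This was Slc25a37, the mitochondrial iron importer mitoferrin of red cells (0.47, p 0.0136 by limma). It was at 38.7, 44.7 and 45.8 against 69.8, 48.5 and 62.3 CPM, with DEHP replicates 1 and 3 again highest. The other two of highest level were Ireb2 (-0.04, p 0.632) and Steap3 (0.07, p 0.393).

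Of genes of reticulocyte maturation and late red cell enzymes, 10 of 12 were measured, with a median log2 difference of 0.11. Of these, 2 had an unadjusted p under 0.05 by limma, both higher, beside 4.76% of all genes higher by p. Car2, carbonic anhydrase, was at 2.45, 2.52 and 3.06 CPM in the control ovaries and 18.6, 3.41 and 12.8 CPM in the DEHP-lineage ovaries (1.81, p 0.0158). The DEHP-lineage ovaries had the same order as in Hba-a1, which says mainly that replicate 1 exceeded replicate 2. Unlike in Hba-a1, DEHP replicate 2 lay just above every control, so the groups did not overlap. Cat, catalase, was at 141, 130 and 111 against 148, 152 and 155 CPM (0.26, p 0.0321), with no high values confined to replicates 1 and 3. Prdx2 (-0.06, p 0.428) and Xpo7 (0.05, p 0.545) were the others of highest level. In the glycolysis list, which includes Bpgm, 0 of 11 measured genes had an unadjusted p under 0.05 (8.78% of all genes). The median log2 difference was 0.04 (Aldoa 0.14, Ldha 0.04). Of 12 measured genes that clear haemoglobin and haem, Hmox1, the inducible haem oxygenase, was higher (0.42, p 0.00340) and Hmox2 lower (-0.24, p 0.0283), with Lrp1 (0.21) and Fth1 (-0.02) at the highest levels. Hmox1 was at 20.1, 20.8 and 20.5 CPM against 28.8, 25.4 and 27.9 CPM, with no overlap. Cygb, a globin of connective tissue cells, differed by -0.18 (p 0.129). No gene of these lists was called, beside 0.0425% of all genes.

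**Figure D4:**
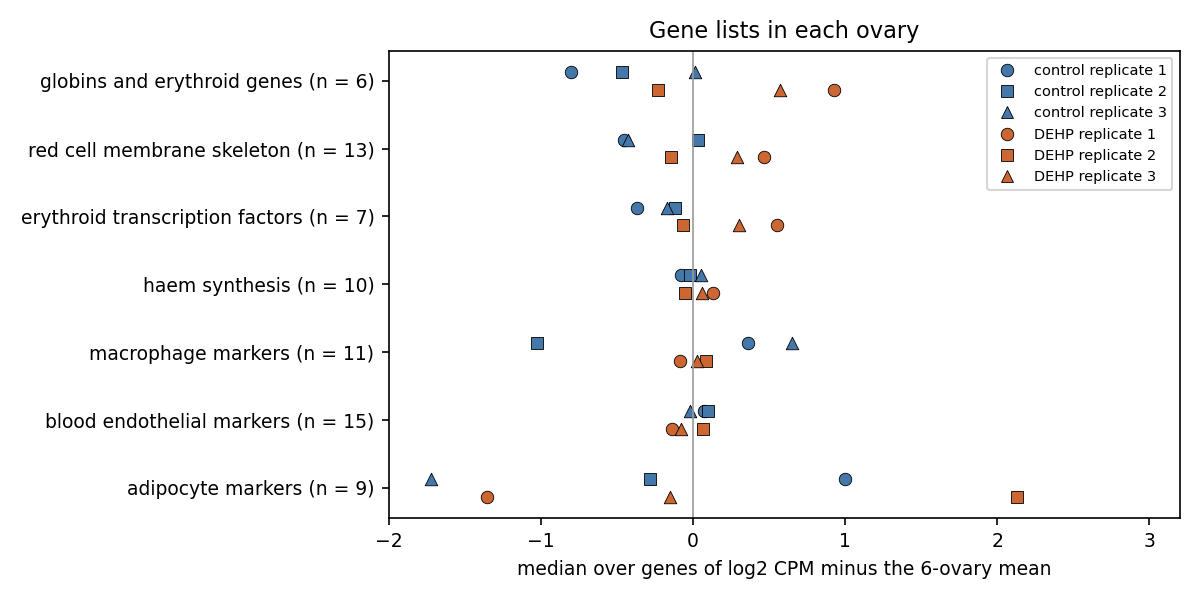
For each gene list, the median over its measured genes of log2 CPM minus the mean of the 6 ovaries, one point per ovary. The 4 red cell lists plotted place DEHP replicates 1 and 3 highest, at 0.92 and 0.57 for the globins and erythroid genes; the adipocyte list places DEHP replicate 2 highest, at 2.13.

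Markers of other cells were read in the same ovaries, and their part in the globin values was not tested. Over all genes, 4.76% were higher and 4.02% lower by an unadjusted p under 0.05 from limma, and 0.0425% were called. Most markers of other blood cells were not measured. The platelet list had 3 of 13 measured: Itga2b (0.92, p 0.0160) and Clec1b (1.17, p 0.0441) were higher and Itgb3 lower (-0.33, p 0.0298), with a summed level of 102 to 143 CPM in the control lineage and 93.7 to 99.7 CPM in the DEHP lineage. Itgb3 carried nearly all of that sum, at 101, 142 and 117 against 97.5, 94.5 and 91.4 CPM, and the median of the 3 genes was highest in the 3 DEHP-lineage ovaries. Of neutrophil markers 2 of 13 were measured, Lcn2 (1.63, p 0.0161) and Csf3r (1.22, p 0.148), with a sum of 0.578 to 2.08 against 2.38 to 5.47 CPM, highest in DEHP replicate 2. Of lymphocyte markers 3 of 14 were measured, with 0 under p 0.05 (Cd4 0.11, Ms4a1 0.25) and a sum of 4.72 to 6.25 against 5.37 to 6.20 CPM. Macrophage markers (11 of 12 measured; Lyz2 0.51, Mrc1 -0.10; 0 under p 0.05) summed to 51.9 to 150 CPM against 96.3 to 116 CPM. None of these lists placed DEHP replicates 1 and 3 above all other ovaries in its summed level.

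Of the vessel and stromal markers, only the lymphatic list was higher in the DEHP lineage in its summed level in every ovary. Blood endothelial markers (15 of 16 measured, median -0.07) summed to 507 to 548 CPM in the control lineage and 452 to 523 CPM in the DEHP lineage, lowest in DEHP replicates 1 and 3. Kdr (-0.29, p 0.00734) and Eng (-0.26, p 0.0146) had lower values, and Pecam1 (-0.12) and Cdh5 (-0.13) did not reach an unadjusted p of 0.05. Lymphatic markers (5 of 7 measured) summed to 118 to 126 against 158 to 163 CPM. Reln (0.75), Prox1 (0.40) and Mmrn1 (0.31) were under an unadjusted p of 0.05 and Flt4 (0.11) and Lyve1 (0.05) above it. Reln was the largest part of the sum in every ovary, at 45.6, 33.8 and 36.8 against 61.3, 66.2 and 66.3 CPM. Without overlap, 4 of the 5 genes were higher (10.8% of all genes). Smooth muscle and pericyte markers (12 of 12 measured, median -0.28) summed to 2207 to 2470 against 1798 to 2040 CPM, and 4 of them, Actg2, Cnn1, Myh11 and Acta2, had an unadjusted p under 0.05 and lower values, while Tagln (-0.19) and Pdgfrb (-0.10) did not reach it. None of these genes was called, beside 0.0425% of all genes. By limma an unadjusted p under 0.05 was reached by 4.76% of all genes with the DEHP lineage higher and by 4.02% with it lower.

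Markers of the ovary's own cells were read in the same way. Theca and interstitial markers had a lower mean in the DEHP lineage in 8 of 8, with 0 under an unadjusted p of 0.05 (Hsd3b1 -0.18, Ptch1 -0.23). They summed to 2942 to 3640 CPM in the control lineage and 2740 to 2836 CPM in the DEHP lineage, with no overlap. Hsd3b1 carried most of that sum, at 2212, 2777 and 2090 against 2085, 2061 and 2044 CPM. Oocyte markers had a lower mean in 11 of 12 and summed to 1187 to 1537 against 1097 to 1249 CPM. The oocyte growth factors Bmp15 (-0.35, p 0.00131 by limma) and Gdf9 (-0.31, p 0.0226) had lower values without overlap, and Zp2 (-0.25) and Nlrp5 (-0.07) did not reach an unadjusted p of 0.05. Granulosa markers had a lower mean in 6 of 10 and summed to 6973 to 7719 against 7660 to 8851 CPM. Inha carried most of that sum, at 3815, 4131 and 4489 against 4573, 5517 and 4603 CPM. Amh was lower (-0.25, p 0.0409 by limma), and Inha (0.24) and Nr5a2 (-0.01) were not under 0.05. None was called (0.0425% of all genes were), and CPM values of one ovary share a total. Over all genes, 4.02% were lower by an unadjusted p under 0.05 from limma and 12.2% lower without overlap.

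In their summed level, adipocyte markers set DEHP replicate 2 apart, the DEHP-lineage ovary without high globins. Their sum was 251, 119 and 72.1 CPM in the control ovaries and 66.0, 578 and 125 CPM in the DEHP-lineage ovaries, with all 9 measured. Fabp4, a fatty acid carrier, was at 160 CPM and Cfd, adipsin, at 217 CPM in DEHP replicate 2, a large part of its sum. That ovary lay above every control in 7 of the 9 genes (26.1% of all genes). Plin1, at 25.5 CPM there, and Lep, at 2.49 CPM and picked after its values were seen, lay within the control range. Pck1 was higher (2.65, p 0.00494) and Plin1 lower (-0.69, p 0.0298 by limma). Among plasma protein genes of liver, 2 of 8 were measured. Ahsg, fetuin-A, was at 0.470, 1.00 and 1.13 CPM in the control ovaries and 31.5, 1.93 and 14.6 CPM in the DEHP-lineage ovaries (3.57, p 0.00674 by limma). As in Slc4a1, DEHP replicate 1 exceeded DEHP replicate 2, and the place of replicate 3 between them follows largely from its link to both. Apoa1 was at 94.7, 112 and 45.1 against 97.7, 94.5 and 105 CPM (0.34, p 0.301).

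The genes whose pattern over the 6 ovaries was most like the mean deviation of the 6 measured members were sought among 13054 other genes with a mean log2 CPM of at least 1. The deviations were not scaled by gene. Slc4a1, itself below that level, therefore weighed most in the mean: its DEHP replicate 1 exceeded replicate 2 by 5.54, against 1.68 for Hba-a1. Pearson's r over 6 ovaries was 0.998 for Homer3, a synaptic scaffold protein, 0.997 for 2310009B15Rik, 0.996 for Hbb-b2, 0.995 for Msantd1, 0.991 for Cmip and for Nupr1, a stress-induced nuclear protein, 0.990 for Ndufb2 and 0.988 for Gm6368. In all, 69 genes had an r of at least 0.95. The ovaries share one removed direction, and the profile is a description with no test. Likeness of order was not likeness of size: the log2 difference was 0.17 for Homer3 and 0.08 for Ndufb2, against 1.80 for Hbb-b2. Of the members, which are part of the profile, Slc4a1 had an r of 0.990 with it, Hba-a1 0.984, Alas2 0.968, Hbb-bs 0.951, Hbb-bt 0.878 and Bpgm 0.120.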

How the data were processed

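Polyadenylated RNA of 6 whole ovaries was sequenced. The authors deposited log2 CPM per ovary for 16454 genes, with a surrogate variable removed according to the table's name, and their own log2 fold change, signed fold (a score, not used here), p-value and adjusted p. STAR 2.5.3a, featureCounts, Subread 1.5.2, edgeR 3.20.5 and Trimmomatic 0.36 are listed for build GRCm38.p6, per the submitters' processing notes, beside R, FastQC and bcl2fastq. The sources used here do not give their roles or settings. Read counts were not used.

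Every gene was tested with limma 3.58.1 in R 4.3.3 (mean-variance trend, two-sided, Benjamini-Hochberg adjustment, threshold 0.05), with no filter or pseudocount. Of 4 residual directions the values fill 3, so 3 degrees of freedom were used. CPM is 2 to the power of the deposited log2 value. Positions and promoters are RefSeq's, and coding sequences and shared windows come from GENCODE's annotation of the same build.

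The members and lists were chosen with earlier results of these data known. Named were all members; of each list, the genes with an unadjusted p under 0.05 and the 2 others of highest mean CPM; and the 8 genes of most similar pattern. Alternatives were 4 degrees of freedom, a replicate block, quantile normalization, median centring, a filter, 1 CPM added, no trend, exon length, each ovary left out and, chosen after seeing the data, DEHP replicates 1 and 3 averaged and the wider beta globin sum.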

Additional observations from a re-analysis of the deposited data

How the results depend on the processing

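No member changed direction under any alternative run. Hba-a1 (1.14 to 1.98 on the log2 scale) and Hbb-bs (0.67 to 1.09) had an unadjusted p under 0.05 by limma in all 14 alternatives, Slc4a1 (1.77 to 4.67) in 4 of 13, Alas2 (0.51 to 1.29) in 2, Hbb-bt (0.23 to 0.83) in 1 and Bpgm (-0.23 to -0.06) in 0 of 14. Genes called over the whole table numbered 7, against 20 with 4 residual degrees of freedom, 3 with quantile normalization, 1 with no mean-variance trend, and 3 to 35 with single ovaries left out. Among these single-ovary counts the largest, 35, came without DEHP replicate 2, and 21 without control replicate 1. Leaving out single ovaries gave 2 to 4 members under an unadjusted p of 0.05, with 4 without control replicate 3 or DEHP replicate 2, and 0 to 1 members called, Slc4a1 without DEHP replicate 2. With DEHP replicates 1 and 3 averaged, 2 members were under an unadjusted p of 0.05 and 0 were called. The beta globin sum differed by 0.79, and by 1.40 with Hbb-b1 and Hbb-b2 added, an alternative chosen after seeing the data. Slc4a1 was below the filter on mean level and has no value there.

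Same-numbered ovaries share only a number in the labels, and their deviations correlated at -0.33, -0.003 and -0.20, so the numbers were not taken as pairs. With the replicate number as a block, 155 genes were called, 4 members had an unadjusted p under 0.05, and 3 were called by limma: Hba-a1 (adjusted p 0.00298), Hbb-bs (0.00825) and Slc4a1 (0.0462). That fit had only 1.68 residual degrees of freedom, against 3 in the main fit, so its calls rest on little.

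The unknown depth limits the lowest values most, among them those of Slc4a1 under 1 CPM in 4 ovaries.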
